A study of Mus musculus with 46 samples.

Results

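Mouse thyroid tumour cells that had lost Rb, p53 and Max and were then given Max again (Max addback cells, 3 libraries) were set against thyroid tumour cell lines that had lost only Rb and p53 (RP lines, 4 libraries). The comparison asks what stays unlike the RP lines once Max is present. Its members are the 13528 genes whose identifiers stand in both deposited expression tables, which list 14056 genes for the addback experiment and 14360 for the lines. The 7 libraries are part of a series of 46. Levels are in CPM, reads of a gene scaled to library depth, rescaled together over the shared genes, and differences between groups are on the scale log2(CPM + 1), which understates the change of genes with few reads.

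All groups came from mice with conditional Rb and p53 mutations and a tamoxifen-inducible Cre driven from Ascl, which acts in neuroendocrine cells. Cell lines were grown from the tumours in DMEM with fetal bovine serum. The 4 RP lines carry 4 different animal identifiers. RPM lines also lack Max: there were 4 of them, and the 3 addback and 3 empty vector libraries carry the identifier of RPM line replicate 2 and are treated here as that 1 line. Reads of a Y-linked gene, given below, were absent from the addback libraries and present in the other libraries of that line, and whether these cells are the whole line or part of it was not tested. The sources used here give neither the vector nor the Max construct nor the age of the mice. The addback and empty vector libraries form 1 experiment and the untransduced lines another. Experiment, cell line, vector and Max status therefore cannot be told apart in a difference between addback cells and RP lines, and p-values measure the spread between these libraries.

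MAX is a small helix-loop-helix leucine zipper protein that works as a dimer. Paired with MYC, MYCN or MYCL it activates genes at E-box sequences, and paired with MNT, MXD proteins or MGA it represses them; MLX is a related hub with partners of its own. MGA and MAX also belong to a Polycomb complex, PRC1.6, that keeps meiotic and germline genes silent in somatic cells. The thyroid's neuroendocrine cell is the C cell, which makes calcitonin and gives rise to medullary thyroid carcinoma.

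Each RP library held between 8213439 and 8471021 reads over the shared genes and each addback library between 7417787 and 7903381, so that 3 reads correspond to 0.355 to 0.387 CPM. The 3 addback libraries were not equally close: the chi-square of their reads, divided by its degrees of freedom, was 1.85 between libraries 1 and 2, but 15.8 and 13.5 between each of these and library 3. RP lines differed from each other by 21.1 to 58.4. The addback libraries also lacked transcripts of the Y chromosome: Ddx3y, a Y-linked RNA helicase, was at 0 reads in all 3, against 124 CPM in the untransduced line they are named for and 177, 164 and 157 CPM in the empty vector libraries. Among RP lines Ddx3y was present except in library 2, where Xist, the RNA of the inactive X chromosome, stood at 5102 CPM. The part of these differences in the results below was not tested. Among markers of cell types the cultures could hold, 2 of 11 for follicular cells, 4 of 10 for fibroblasts, 3 of 10 for endothelium and 4 of 14 for immune cells were among the shared genes. Of these, Dio1 (3.44) and Cd74 (2.82) were called higher in addback cells and Col1a1 (-1.76), Pdgfrb (-1.77) and Coro1a (-1.87) lower. Over all genes 8.32% were called higher and 10.1% lower (limma adjusted p below 0.05). The immune markers summed to 9.12 to 19.8 CPM in RP lines and 13.8 to 26.2 CPM in addback cells. Cd74 was not called by edgeR (adjusted p = 0.0636), nor Col1a1 without addback library 1, 2 or 3. Of 7 Schwann and neural crest markers 4 were measured and 1 was called higher. Of 3 parathyroid markers 1 was measured and 0 were called.

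By the median pair, addback cells stood further from RP lines than RP lines stood from each other. They were closer to RP lines than RPM line replicate 2 and the empty vector cells, but further than RPM lines 1, 3 and 4. The addback range overlapped those of the RP pairs and of the untransduced lines, but not that of the empty vector cells. Between an addback and an RP library, 1659 to 2781 genes were at least 1 log2 unit apart, with a median of 2346 over 12 pairs. Between 2 RP lines the number was 763 to 1765 (median 1640, 6 pairs). RPM line replicate 2 differed from RP lines in 2153 to 2851 genes (median 2770) and the empty vector libraries in 3064 to 3761 (median 3628). RPM lines 1, 3 and 4, which also lack Max, differed from RP lines in 1198 to 2574 genes (median 2073). These ranges against RP lines rest on the same 4 RP libraries. Addback cells were 826 to 983 genes from the untransduced line, whereas empty vector cells were 1626 to 1662 genes from it. The plot of pairs shows that the empty vector cells were the furthest of the line's libraries from RP.

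**Figure D1:**
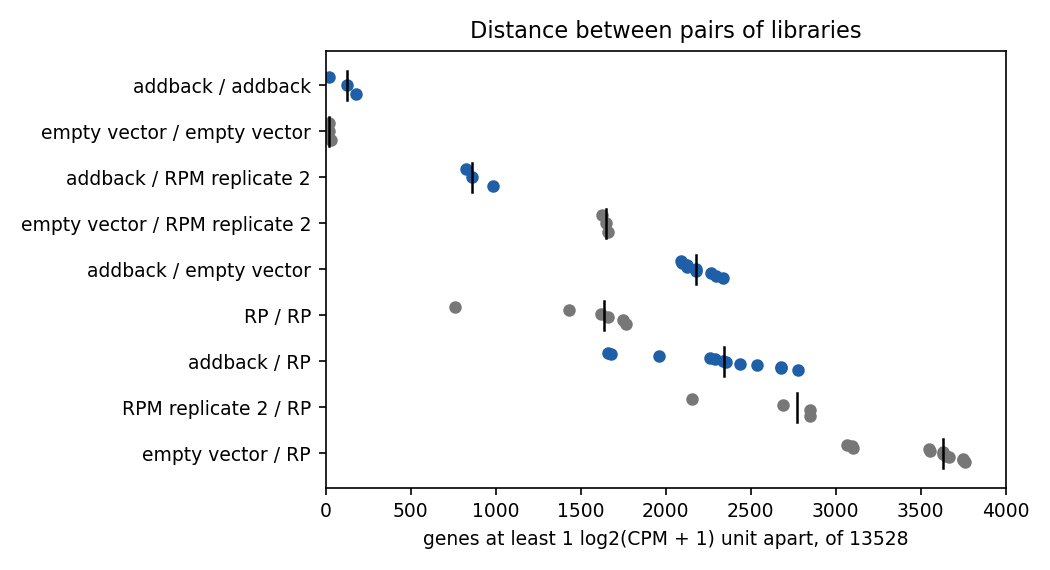
Number of the 13528 shared genes that differed by at least 1 unit of log2(CPM + 1) between 2 libraries, with 1 point per pair of libraries, a vertical bar at the median, and pairs with an addback library in blue. Addback against RP pairs run from 1659 to 2781, overlapping the RP against RP pairs at their lower end and lying below all empty vector against RP pairs.

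Across all genes, 1125 were higher and 1365 lower in addback cells than in RP lines (limma, Benjamini-Hochberg adjusted p below 0.05), which is 8.32% and 10.1% of those tested and 18.4% together. Of these, 458 were at least 1 log2 unit higher and 730 at least 1 log2 unit lower. The values of the 2 groups did not overlap for 4749 genes (35.1%). The number of calls rests on counting the addback libraries as 3 samples: with the 3 averaged and counted as 1, only 17 genes passed (0.126%), 3 higher (0.0222%) and 14 lower (0.103%). Leaving out an addback library gave 1083 calls without library 1, 920 without library 2 and 1247 without library 3. A sum of 2 differences that each stay inside an experiment, addback minus empty vector plus untransduced line minus RP, called 845 genes higher (6.25%) and 715 lower (5.29%), 11.5% together.

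Part of the distance ran along whole chromosomes. On chromosome 13 the median gene with a mean of at least 10 CPM was 0.48 log2 units higher in addback cells than in RP lines, and 135 of 370 such genes were called higher and 18 lower. Untransduced replicate 2 stood 0.47 above RP on this chromosome and the empty vector cells 0.42, and RPM lines 1, 3 and 4 stood 0.55, 0.10 and 0.51 above. Chromosome 12, which carries Max, had a median of 0.26, with 89 of 406 genes higher and 22 lower. Chromosome 7 lay at -0.26, with 147 of 771 genes lower and 20 higher, and chromosome 4 at -0.17, with 137 of 671 lower and 22 higher. The X chromosome lay at 0.32 in addback and 0.34 in empty vector cells but at -0.07 in the untransduced line. With each library centred on each chromosome's median, the counts on chromosome 13 became 32 higher and 53 lower and those on chromosome 7 became 62 and 64. On chromosome 1 they went from 44 higher and 71 lower to 67 and 67, and on chromosome 2 from 102 and 71 to 97 and 102. Over all genes centring gave 2572 calls, 1164 higher and 1408 lower, so that calls moved between chromosomes and directions while their number did not fall. DNA copy number was not measured, and its part in these medians was not tested.

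**Figure D2:**
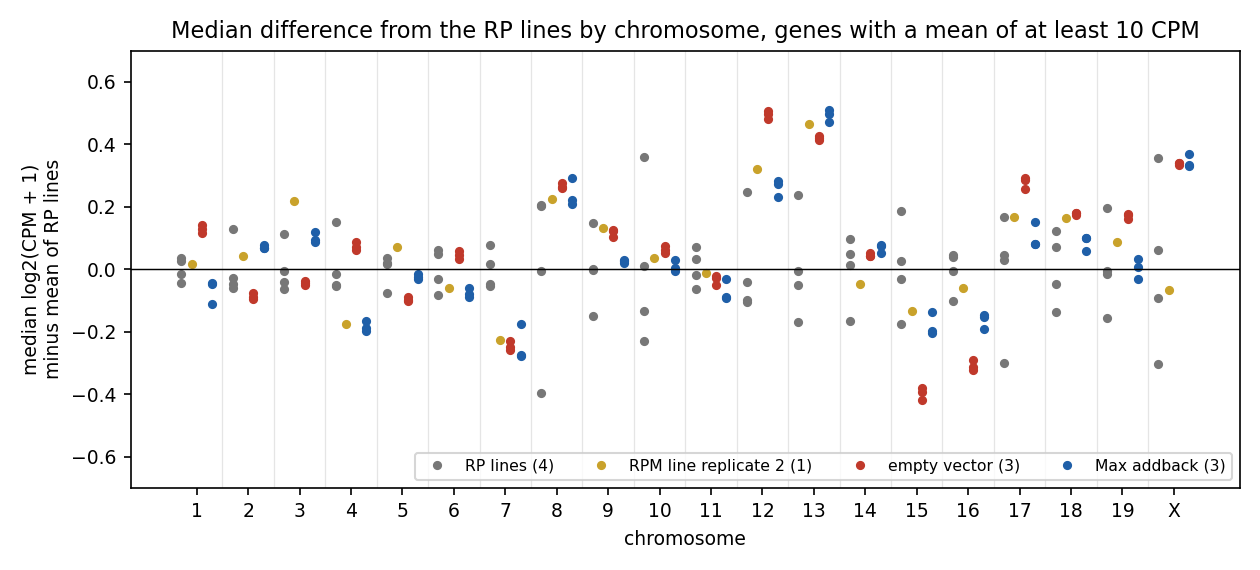
Median difference of each library from the mean of the RP lines, in log2(CPM + 1), for the genes of each chromosome with a mean of at least 10 CPM; each point is 1 library. All 3 addback libraries lie above every RP line on chromosome 13, where the median difference is 0.48, and below every RP line on chromosome 7, where it is -0.26.

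Max itself was higher in addback cells than in any other library. Of the 12 measured genes of its network, 3 were higher and 1 lower than in RP lines (limma adjusted p below 0.05). Among all genes 8.32% were higher and 10.1% lower, and the network's median difference was 0.00. Max (chr12:76937269-76962201, minus strand, GRCm38) stood at 249, 247 and 221 CPM in addback cells and at 65.2, 45.3, 51.9 and 57.8 CPM in RP lines. The means were 239 ± 15.6 (SD, n = 3) and 55.1 ± 8.49 (SD, n = 4), and the exact permutation test, two-sided, gave p = 0.0571, the smallest this design allows. RPM lines held 69.4 to 102 CPM over this gene, so the level does not show the mutation. Rb1 was at 210 ± 19.3 CPM in addback cells and 243 ± 40.1 in RP lines (exact permutation p = 0.229), and Trp53 at 10.7 ± 1.40 and 11.6 ± 3.46 CPM (exact permutation p = 0.971).

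Mycl was the member furthest from RP lines. Mycl (chr4:122995652-123002485, plus strand), which encodes L-MYC, stood at 408, 177, 181 and 235 CPM in RP lines and at 11.2, 12.8 and 11.6 CPM in addback cells. It was -4.20 ± 0.28 (SE) log2 units from RP (limma adjusted p = 0.00015), with no overlap between the groups. Mycl was also low in 3 of 4 RPM lines, at 322, 6.57, 2.86 and 3.12 CPM, and stood at 13.9, 13.4 and 9.62 CPM with the empty vector. Mycn, which encodes N-MYC, was 1.07 ± 0.22 higher in addback cells (limma adjusted p = 0.0136), at 23.4, 19.8 and 22.6 CPM against 10.7, 7.18, 12.8 and 9.59. Myc was not analysed here.

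The repressor partners divided. Mnt, the broadly expressed MYC antagonist, stood at 57.0, 55.6 and 57.6 CPM in addback cells, inside the RP values of 59.7, 57.5, 55.7 and 52.6. RPM lines held 95.8 to 126 CPM of Mnt and empty vector cells 78.3 to 97.6, with no overlap with either group. The addback difference from RP was 0.01 ± 0.11 (limma adjusted p = 0.959). Mxi1 stood at 104, 117 and 145 CPM in addback cells, beside 77.4 to 119 in RP lines and 144 to 196 in RPM lines; its difference from RP of 0.35 ± 0.18 missed the threshold. Mxd4 likewise missed it at 0.44 ± 0.17. Mxd3, an antagonist linked to S phase that lies on chromosome 13, was 1.24 ± 0.29 higher (limma adjusted p = 0.0216) and stood at 84.1 CPM in the untransduced line. Mga was at 252 and 243 CPM in addback libraries 1 and 2 and at 143 in library 3, against 214 to 261 in RP lines. The number of network genes called higher was 1 without any of the 3 addback libraries, and that 1 was Max, and 4 without RP line 2.

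**Figure D3:**
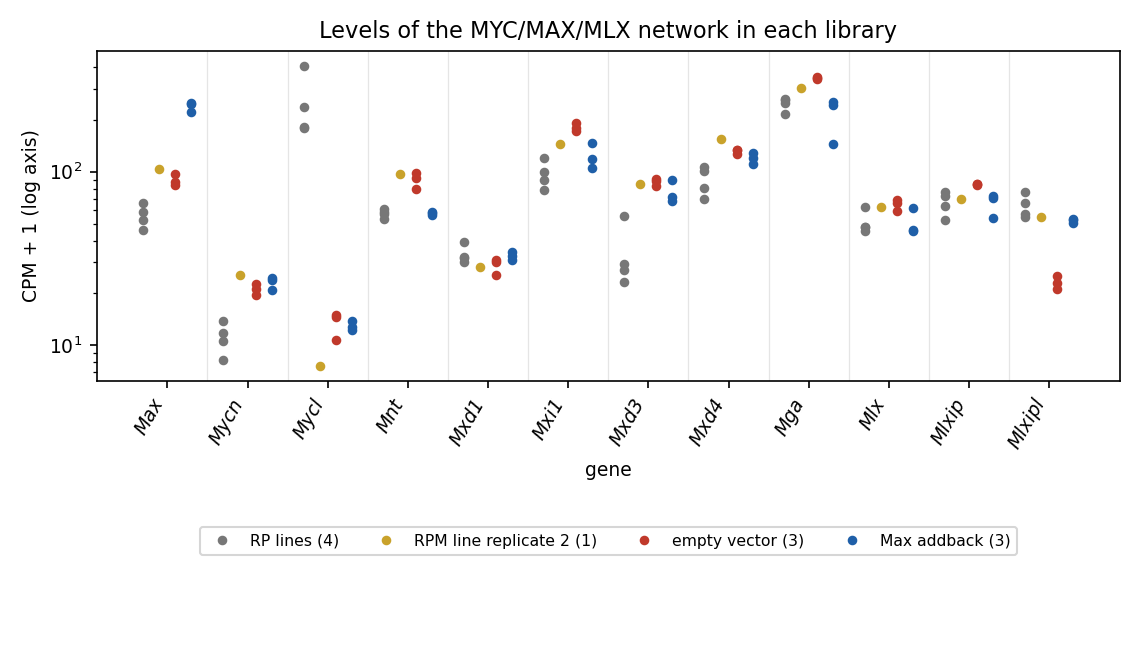
Levels of the 12 measured MYC/MAX/MLX network genes as CPM + 1 on a log axis, with 1 point per library and colours for RP lines, RPM line replicate 2, empty vector and addback cells. Mnt in addback cells, at 55.6 to 57.6 CPM, lies among the RP lines, while Mycl, at 11.2 to 12.8 CPM, stays far below them and Max, at 221 to 249 CPM, lies above all other groups.

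A gene was called far outside the RP lines when every library of a group lay at least 1 log2 unit beyond the nearest RP library. In 83 genes the untransduced line, the empty vector cells and the addback cells were all far above RP, and in 221 all were far below, with addback cells called by the main test. The 3 comparisons share the RP libraries, and these genes were chosen by the values given here, which are a description. The plot of kept-apart genes shows 12 with the largest addback differences above RP and 11 of those below.

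**Figure D4:**
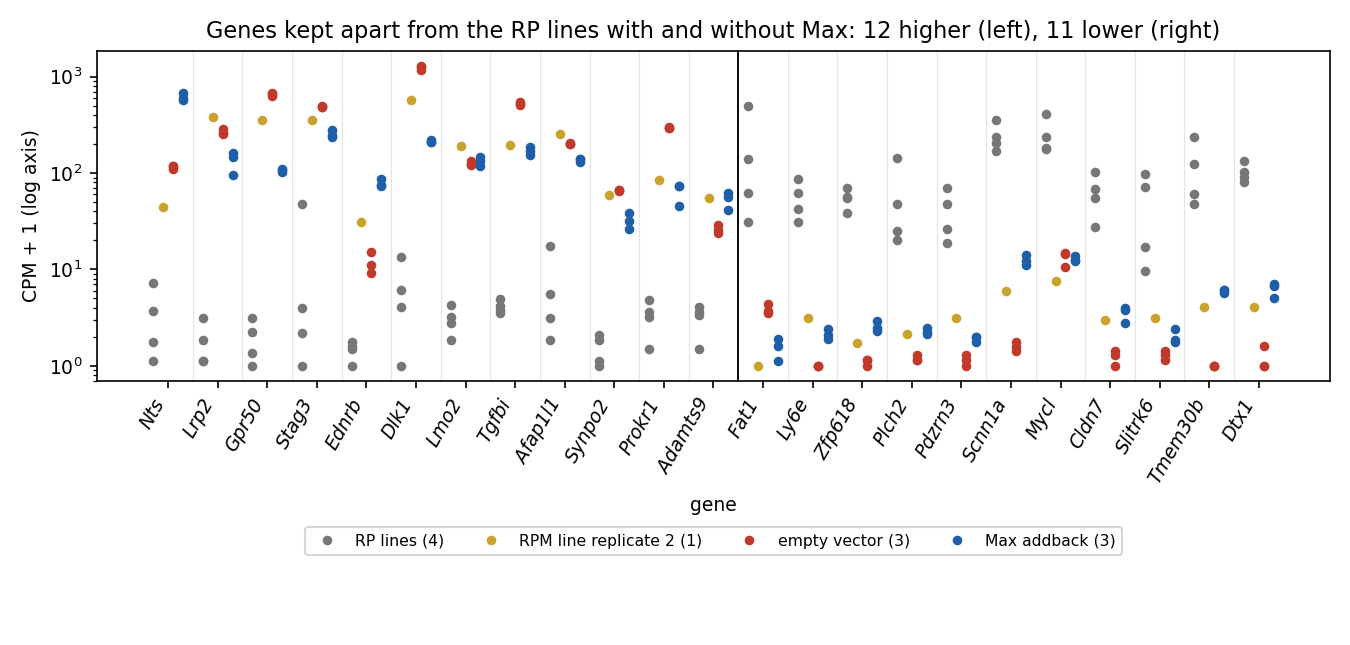
Levels as CPM + 1 on a log axis of the 12 genes furthest above RP lines in addback cells (left of the line) and 11 of those furthest below (right), among genes also far outside RP in the untransduced line and the empty vector cells; each point is 1 library. Points of all 3 groups of the RPM line lie on the same side of the RP lines for each gene shown, as the choice of genes requires.

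Among the genes kept higher, Nts (chr10:102481756-102490486, minus strand), which encodes the gut and brain peptide neurotensin, was at 0.120, 2.68, 0.747 and 6.16 CPM in RP lines and at 575, 601 and 681 CPM in addback cells. It was the furthest gene of the group, 7.85 ± 0.56 log2 units above RP (limma adjusted p = 0.000174), and the untransduced line held 43.0 CPM. Ednrb, the endothelin receptor of neural crest cells, was between 0 and 0.747 CPM in RP lines and at 71.6, 85.9 and 74.8 CPM in addback cells, a difference of 5.78 ± 0.24 (limma adjusted p = 2.85e-05). Tgfbi (chr13:56609523-56639562, plus strand), a secreted matrix protein, was at 2.56 to 3.99 CPM in RP lines and at 151, 169 and 184 CPM in addback cells (5.36 ± 0.18, limma adjusted p = 1.53e-05). Lmo2, a LIM-domain cofactor of blood and endothelial transcription, stood 5.51 ± 0.29 above RP. Ednrb, Tgfbi and Lmo2 were the 3 higher genes that passed with the addback libraries counted as 1 sample.

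Lrp2, the endocytic receptor megalin, stood at 148, 161 and 94.7 CPM in addback cells against at most 2.13 CPM in RP lines. Gpr50, a melatonin-receptor-like orphan receptor on the X chromosome, stood at 108, 108 and 100 CPM against at most 2.13 CPM. Dlk1, an imprinted Notch-family ligand, was at 207, 211 and 222 CPM against 0, 3.04, 5.11 and 12.3 CPM. Without Max, Gpr50 was at 353 CPM and Dlk1 at 570 CPM in the untransduced line, and at 636 to 670 and 1175 to 1299 CPM with the empty vector. The addback values of these 2 genes thus lay between the values without Max and those of RP lines.

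Among the genes kept lower, Fat1 (chr8:44935447-45052257, plus strand), an atypical cadherin, stood at 502, 141, 61.4 and 30.4 CPM in RP lines and at 0.884, 0.615 and 0.129 CPM in addback cells. Its difference was -6.17 ± 0.82 log2 units (limma adjusted p = 0.00248), and RPM lines ranged from 0 CPM in replicate 2 to 110 CPM in replicate 1. Scnn1a, a subunit of the epithelial sodium channel, was at 167 to 355 CPM in RP lines and 13.0, 10.2 and 11.2 CPM in addback cells (-4.22 ± 0.24, limma adjusted p = 9.37e-05). Dtx1, a regulator of Notch signalling, was at 79.0 to 133 CPM against 4.06 to 6.07 CPM (-4.00 ± 0.22, limma adjusted p = 8.62e-05). The other RPM lines held Dtx1 at 67.1, 106 and 107 CPM, beside 3.10 CPM in replicate 2. With the addback libraries counted as 1 sample, 14 genes passed as lower, among them Scnn1a, Dtx1, the zinc finger gene Zfp618 and the protease inhibitor gene Spint1.

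The other 3 RPM lines separated genes kept apart in this line from genes apart in several lines. Of the 83 genes kept higher, 22 were beyond the RP range on the same side in all 3 other RPM lines, 27 in 2 lines, 22 in 1 line and 12 in none. Of the 221 kept lower, 35 were beyond it in all 3 other lines, 109 in 2, 48 in 1 and 29 in none. Taking all 4 RPM lines, 17 genes were far above RP in each of them and 17 far below. Addback cells were still far above RP for 8 of the first 17 and far below for 12 of the second 17. For the other 9 and 5 they were neither far outside RP as a group nor all inside its range. The empty vector cells, which also lack Max, were far from RP on the same side for 12 of the first 17 and 11 of the second. In neither set did all addback libraries lie inside the RP range for any gene.

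Rrp12, a factor of ribosome assembly, came closest to RP lines among the 17 that were far above RP in all 4 RPM lines. It stood at 46.4 to 57.9 CPM in RP lines, 125 to 153 CPM in RPM lines, 124 to 141 CPM with the empty vector and 61.3, 58.3 and 49.9 CPM in addback cells. Its addback difference was 0.10 (limma adjusted p = 0.631). Myb, a proto-oncogene transcription factor, was among the 17 that were far below RP in all 4 RPM lines. It stood at 52.3, 50.1, 62.5 and 65.6 CPM in RP lines and at 11.9, 11.9 and 7.74 CPM in addback cells, a difference of -2.36 (limma adjusted p = 0.000366). Rtn1, which encodes a neuronal and neuroendocrine reticulon, was at 104 to 214 CPM in RP lines, 17.0 to 33.0 CPM in RPM lines and 28.7, 29.7 and 33.9 CPM in addback cells (-2.23 ± 0.22, limma adjusted p = 0.000696). These genes were picked after their values were seen.

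Meiotic and germline genes stayed above RP lines in part. Of the 36 genes listed, 18 were among the shared genes. Of these 18, 7 were called higher and 0 lower, beside 8.32% and 10.1% of all genes. Their median difference was 0.22, beside 0.00 over all genes. The list was chosen with earlier results of these data known. Members near 0 CPM in RP lines, such as Tdrd1 and Rbm46, could hardly be called lower. Stag3, Tdrd1, Rbm46, Ccdc36 and Taf4b are also among the 17 genes far above RP in all 4 RPM lines. The counts are therefore a description. Stag3 (chr5:138280240-138312393, plus strand), the meiotic cohesin subunit, was at 3.01, 1.22, 0 and 46.9 CPM in RP lines and at 281, 249 and 235 CPM in addback cells. It was 5.81 ± 1.11 above RP (limma adjusted p = 0.0103), with RP line 4 well above the other RP lines. RPM lines held 274 to 354 CPM and empty vector cells 482 to 499 CPM. Tdrd1 (chr19:56826209-56870012, plus strand), a Tudor protein of the piRNA pathway, was at 0, 0, 0.125 and 4.74 CPM in RP lines and at 26.5, 27.9 and 24.1 CPM in addback cells. Its difference was 4.09 ± 0.60 (limma adjusted p = 0.00359), and it stood at 36.4 to 77.6 CPM in RPM lines and 120 to 126 CPM with the empty vector. For both genes addback cells lay above every RP line and below every empty vector library.

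The other genes of this list called higher held lower levels. Taf4b, a germ cell TFIID subunit, was at 1.25 to 3.65 CPM in RP lines and 15.8, 16.2 and 11.5 CPM in addback cells (2.15 ± 0.31, limma adjusted p = 0.00339). Rbm46, an RNA-binding protein of meiotic entry, was at 0.842, 0, 0 and 3.91 CPM against 6.44, 3.82 and 5.93 CPM (1.86 ± 0.54, limma adjusted p = 0.0476), so that RP line 4 overlapped the addback range. RPM lines held 16.7 to 48.7 CPM of Rbm46. An antisense gene starts in its promoter, and without strand the reads of such a pair cannot be told apart. Ccdc36 (2.01), Tex101 (2.71) and Slfn9 (0.80) also passed. Rbm46 and Ccdc36 missed the threshold without addback library 1, 2 or 3, Slfn9 without library 1 or 2 and Tex101 without library 2 or 3. By edgeR Rbm46 (adjusted p = 0.209), Ccdc36 and Tex101 missed it, and by DESeq2 Rbm46 (adjusted p = 0.242) and Tex101. Rbm46, Ccdc36, Tex101 and Taf4b missed it by the within-experiment sum. Syce2, a synaptonemal complex protein, ranged widely in RP lines, from 3.49 to 31.8 CPM, and addback cells at 17.9, 20.1 and 28.8 CPM lay inside that range. Leaving out addback library 2 left 3 of the 18 called higher, edgeR's quasi-likelihood test called 4, DESeq2 3 and the within-experiment sum 2. By that sum Stag3 missed the threshold (limma adjusted p = 0.0816). By DESeq2 Stag3 (adjusted p = 0.0635) and Tdrd1 (adjusted p = 0.0937) missed the threshold, and by limma with the addback libraries as 1 sample 0 of the 18 passed.

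MAX pairs bind the E-box CACGTG. Mnt lay inside the RP range, and Tdrd1 and Rbm46 are 2 of the germline genes called higher, though the Rbm46 values overlapped those of RP lines. The sequence before the start site is shown for each of these genes. Each is the RefSeq sequence of the 250 bases before the start on build GRCm38.p6, read 5′ to 3′ on the gene's strand. Capitals mark CACGTG, which is its own reverse complement.
Tdrd1, chr19:56825959-56826208, plus strand: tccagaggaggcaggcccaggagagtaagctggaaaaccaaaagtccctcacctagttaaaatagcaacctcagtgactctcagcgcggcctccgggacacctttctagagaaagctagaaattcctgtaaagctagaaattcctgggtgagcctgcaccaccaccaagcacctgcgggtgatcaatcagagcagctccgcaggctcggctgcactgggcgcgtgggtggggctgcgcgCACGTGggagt
Rbm46, chr3:82876484-82876733, minus strand: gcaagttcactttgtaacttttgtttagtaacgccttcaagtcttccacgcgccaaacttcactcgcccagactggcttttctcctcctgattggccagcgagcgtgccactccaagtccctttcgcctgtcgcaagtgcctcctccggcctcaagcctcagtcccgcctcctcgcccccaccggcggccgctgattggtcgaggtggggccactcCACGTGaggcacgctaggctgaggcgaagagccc
Mnt, chr11:74830674-74830923, plus strand: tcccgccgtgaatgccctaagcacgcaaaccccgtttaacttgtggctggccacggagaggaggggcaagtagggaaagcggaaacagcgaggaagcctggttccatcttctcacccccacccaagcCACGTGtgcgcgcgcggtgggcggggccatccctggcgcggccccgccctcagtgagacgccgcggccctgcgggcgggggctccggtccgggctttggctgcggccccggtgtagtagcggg

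The E-box begins 11 bases before the start in this Tdrd1 window, 34 bases before it in Rbm46 and 123 bases before it in Mnt. Of the 7 germline genes called higher, 5 had a window in the RefSeq table and 3 of these held CACGTG (Stag3, Tdrd1 and Rbm46). Of the 14 germline genes with a window, 6 held it (42.9%), as did 4 of the 12 network genes, 2 of 44 ribosome biogenesis genes and 10.1% of the 10437 shared genes with a window. A match is a description of the letters and says nothing of binding.

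Of the 15 members of the PRC1.6 complex, 2 were called higher, 1 of them Max itself, and 1 lower, beside 8.32% and 10.1% of all genes. Besides Max, E2f6, its DNA-binding E2F, was 0.60 ± 0.13 higher (limma adjusted p = 0.016), at 91.9, 91.0 and 89.6 CPM against 52.0 to 67.3 CPM. E2f6 lies on chromosome 12, and with libraries centred by chromosome it was at 0.34 (limma adjusted p = 0.186). By the within-experiment sum it was at 0.09 (limma adjusted p = 0.797), and the call was lost without any of the 3 addback libraries. Rybp, a Polycomb subunit, was at 16.2, 17.0 and 13.2 CPM in addback cells and at 50.4, 39.1, 49.8 and 50.6 CPM in RP lines. That is a difference of -1.56 ± 0.17 (limma adjusted p = 0.000894), and Rybp was lower in the untransduced line (21.3 CPM) and with the empty vector (22.9 to 25.6 CPM) too.

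Epithelial genes had the lowest median of the lists plotted. Of 21 measured adhesion and keratin genes, 17 were called lower and 0 higher, with a median of -2.11, while 10.1% of all genes were lower and their median was 0.00. The summed level of the list ran from 3699 to 5872 CPM in RP lines, from 1030 to 1256 CPM in addback cells and from 193 to 211 CPM with the empty vector. It was 403 CPM in the untransduced line. Cdh1 (chr8:106603351-106670246, plus strand), which encodes E-cadherin, was at 1123, 649, 682 and 705 CPM in RP lines and at 184, 193 and 170 CPM in addback cells (-2.07 ± 0.20, limma adjusted p = 0.000619). The untransduced line held 35.1 CPM and the empty vector cells 16.9, 12.6 and 14.4 CPM, so the addback values lay between those and RP.

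Epcam (chr17:87635979-87651129, plus strand), a surface adhesion protein of epithelia, was at 236 to 879 CPM in RP lines and 40.9, 47.9 and 52.9 CPM in addback cells (-2.91 ± 0.42, limma adjusted p = 0.00351). Spint1, an inhibitor of the membrane protease encoded by St14, was at 76.4 to 101 CPM against 5.56, 6.52 and 6.19 CPM (-3.71 ± 0.16, limma adjusted p = 2.85e-05). St14 was -3.57, the vesicle GTPase gene Rab25 -3.42, the tight junction gene Cldn7 -4.05 and the epithelial transcription factor gene Grhl2 -3.18 log2 units from RP. The paired simple-epithelial keratins Krt8 and Krt18 were -2.54 and -2.11 from RP, and the splicing factor gene Esrp1 -2.42. Cldn3, Cldn4, Krt19 and Prss8 did not pass. RPM line replicate 1 lay inside the RP range for some of these genes, with 852 CPM of Cdh1 and 637 CPM of Epcam. Leaving out 1 library left 12 to 18 called lower, with 12 without any of the 3 addback libraries. With the addback libraries as 1 sample only Spint1 passed. The within-experiment sum called 11 lower and 2 higher, and Cdh1 was not among them (-0.85, limma adjusted p = 0.123).

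C cell and neuroendocrine genes were present in both groups, with 5 of 28 called higher, 2 lower and a median of 0.42. The shares over all genes were 8.32% higher and 10.1% lower. Calca, the calcitonin gene, was at 1039, 926, 968 and 2393 CPM in RP lines and at 2404, 2359 and 2886 CPM in addback cells, and its difference of 1.05 missed the threshold (limma adjusted p = 0.0674, or 0.00514 without RP line 4). Scg2, a granin of secretory granules, was 2.48 ± 0.36 higher (limma adjusted p = 0.00356), at 3657, 4080 and 4406 CPM against 507, 612, 592 and 1477 CPM. Calcb, a second calcitonin-family peptide gene, was at 33.5 to 46.8 CPM against 2.49 to 4.99 CPM (3.06 ± 0.27, limma adjusted p = 0.000444).

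Isl1, a neuroendocrine LIM homeobox factor, was 1.13 higher, the prohormone convertase gene Pcsk2 1.07 and the granin-binding gene Scg3 1.01. Pcsk2 stood at 944, 945 and 981 CPM in addback cells, 355 to 743 CPM in RP lines and 137 to 151 CPM with the empty vector. Ret, the receptor tyrosine kinase mutated in medullary thyroid carcinoma, went the other way. It stood at 751, 803, 834 and 515 CPM in RP lines and 187, 190 and 165 CPM in addback cells (-1.98 ± 0.18, limma adjusted p = 0.000504). RPM line replicate 2 held 172 CPM of Ret and the other 3 RPM lines 469 to 583 CPM. Leaving out 1 library left 3 to 8 of the list higher. By the within-experiment sum the median of the list was 0.76. That sum subtracts the difference of empty vector cells from the untransduced line, which had a median of -0.47 here and so raised it.

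Genes of DNA replication and mitosis were partly higher, with 12 of 37 called higher, 0 lower and a median of 0.28. Over all genes 8.32% were called higher and 10.1% lower. The untransduced line had a median of 0.53 and the empty vector cells 0.55 against the same RP lines. Ccnb1, the mitotic cyclin B1, was at 133, 135 and 145 CPM in addback cells and 42.1 to 76.4 CPM in RP lines (1.42 ± 0.20, limma adjusted p = 0.00349), and it lies on chromosome 13. Cdk1, its kinase, was at 320, 358 and 399 CPM against 139 to 199 CPM (1.04 ± 0.15, limma adjusted p = 0.00349). The spindle gene Tpx2 was 1.02 higher and the kinase gene Aurka 0.83, whereas Mki67 at -0.15 did not pass. Leaving out 1 library left 4 to 15 called higher, the fewest without addback library 2. The within-experiment sum called 4 higher and 1 lower, and with the addback libraries as 1 sample 0 passed.

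Brakes of the cell cycle moved in both directions, with 4 of 10 called higher and 3 lower, beside 8.32% and 10.1% of all genes. Cdkn1c, the imprinted inhibitor p57, was at 83.4, 104, 64.3 and 65.0 CPM in RP lines and at 17.1, 16.1 and 18.7 CPM in addback cells (-2.11 ± 0.19, limma adjusted p = 0.000504). All 4 RPM lines lay at 4.24 to 16.8 CPM, below the RP range. Cdkn2b and Cdkn2a, the neighbouring INK4 and ARF genes of chromosome 4, were -1.97 and -0.85 log2 units from RP. Rbl1, the Rb-related pocket protein p107, was 1.24 ± 0.15 higher, at 184, 174 and 149 CPM against 55.9 to 81.5 CPM, and Rbl2 was 0.66 higher. Leaving out 1 library left 1 to 5 of the list called higher, the fewest without addback library 2, and 2 to 3 lower. Rbl2 and Cdkn2a missed the threshold without addback library 1 or 2. With libraries centred by chromosome Rbl2 missed it (limma adjusted p = 0.0895), and Rbl1 missed it by the within-experiment sum.

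Few genes of protein synthesis were called, beside 8.32% called higher and 10.1% lower among all genes. Of 50 ribosome biogenesis genes, 1 was called higher and 3 lower, with a median of -0.03, where the untransduced line stood at 0.47 and the empty vector cells at 0.54. The 1 higher gene was Nol8, on chromosome 13, at 76.2, 84.8 and 74.8 CPM against 28.9 to 51.4 CPM, and RPM lines held 106 to 129 CPM. The nucleolar genes Mybbp1a (-0.42) and Nolc1 (-0.54) and the RNA polymerase I subunit gene Polr1a (-0.50) were lower by the main test. Each of these 3 missed the threshold by the within-experiment sum, where limma adjusted p was 0.0837, 0.0831 and 0.228. None of the list was called lower without any of the 3 addback libraries or without RP line 4. Of 23 classical MYC targets, 0 were called higher and 3 lower by limma, with a median of -0.13; DESeq2 called 1 higher and 5 lower and edgeR 0 and 2. Cytosolic ribosomal protein genes had 2 of 48 called higher, 0 lower and a median of 0.08, but family members with processed copies, such as Rps2, are uncertain. The differences of these medians between addback and RPM cells were not tested as such.

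**Figure D5:**
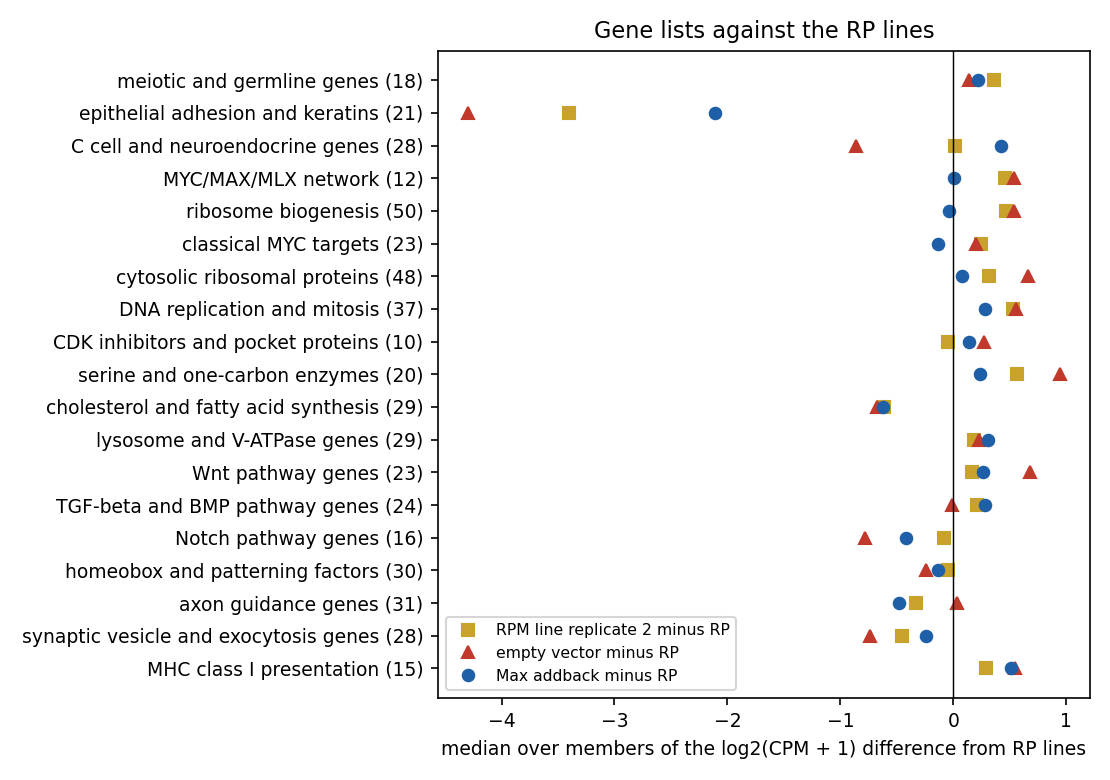
Median over the measured members of each gene list (their number in brackets) of the difference from RP lines in log2(CPM + 1), for addback cells (circles), RPM line replicate 2 (squares) and empty vector cells (triangles), all against the same 4 RP libraries. Addback medians of ribosome biogenesis (-0.03) and the network (0.00) lie near 0, and the epithelial list lies at -2.11.

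Lipid synthesis genes were lower in part. For this and the next 2 lists, the shares over all genes were 8.32% called higher and 10.1% lower. Of 29 cholesterol and fatty acid genes, 12 were called lower and 0 higher, with a median of -0.62 in addback cells, -0.62 in the untransduced line and -0.68 with the empty vector. Srebf2, the transcription factor that drives cholesterol synthesis, was at 385, 433, 415 and 358 CPM in RP lines and 180, 163 and 180 CPM in addback cells (-1.18 ± 0.12, limma adjusted p = 0.000625). Fasn, fatty acid synthase, was -1.39 from RP, and Dhcr7, an enzyme of the last steps of cholesterol synthesis, -1.28. Without addback library 2 the number lower was 5. Serine and one-carbon enzymes had 3 of 20 called higher. Psat1, an enzyme of serine synthesis, was 1.40 ± 0.15 higher (limma adjusted p = 0.00098), at 208, 227 and 247 CPM against 72.4 to 106 CPM. By the within-experiment sum Psat1 was at -0.13 (limma adjusted p = 0.766), and that sum called 0 of the list higher and 1 lower. Lysosome genes had 5 of 29 higher, among them the membrane protein gene Lamp2 on the X chromosome (1.10 ± 0.16, limma adjusted p = 0.00359), which stood at 270, 299 and 284 CPM against 101 to 161 CPM, and 1 lower.

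Signalling lists held members on both sides of RP. Of 23 Wnt genes 6 were called higher and 4 lower, beside 8.32% and 10.1% of all genes. The ligand gene Wnt4 was 3.74 and the receptor genes Fzd7 and Fzd2 2.78 and 1.69 higher. Rnf43, which removes Wnt receptors from the membrane, was at 5.31, 5.79 and 6.96 CPM in addback cells against 19.4 to 94.7 CPM in RP lines (-2.79 ± 0.46, limma adjusted p = 0.00577). Of 24 TGF-beta and BMP genes 5 were higher and 3 lower. Tgfb2, a ligand, was at 47.1, 38.2 and 37.0 CPM in addback cells, 0.962 to 3.99 CPM in RP lines and 1.83 to 3.71 CPM with the empty vector, while the untransduced line held 46.9 CPM (3.54 ± 0.34, limma adjusted p = 0.000614). The ligand gene Bmp4 was 2.55 higher and the signal transducer gene Smad1 was -1.51 from RP.

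Notch pathway genes had 5 of 16 lower and 0 higher: Lfng (-2.69), Hey2 (-1.99), Notch1 (-1.98), Hes6 (-1.28) and Jag2 (-0.93). Lfng, a glycosyltransferase that tunes the receptor, was at 15.5, 15.0 and 15.0 CPM against 48.3 to 147 CPM. The within-experiment sum called 2 of the list lower and 1 higher: Notch1 (limma adjusted p = 0.0688), Hes6 (limma adjusted p = 0.0542) and Jag2 (limma adjusted p = 0.203) missed the threshold. With the addback libraries as 1 sample 0 passed. Homeobox and patterning factors had 1 of 30 higher, Hoxc4 (2.32), and 6 lower. Axon guidance genes had 2 of 31 higher, among them the netrin receptor gene Unc5c (2.58), and 6 lower, among them the semaphorin receptor gene Plxnd1 (-2.87). Synaptic genes had 2 of 28 higher and 6 lower. In these last 3 lists the share called higher was below the 8.32% of all genes and the share called lower above the 10.1%. The within-experiment sum called 1 homeobox, 3 axon guidance and 0 synaptic genes lower. MHC class I presentation genes had 3 of 15 higher, Erap1, H2-Q4 and Psmb10, and 0 lower, beside 8.32% and 10.1% of all genes. Without addback library 1, 0 of the list were called higher. H2-Q4 and Psmb10 missed the threshold without addback library 1, 2 or 3, and Erap1 without library 1 or 2. H2-Q4 also missed it by edgeR (adjusted p = 0.0667).

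Some genes left the RP range without Max and lay inside it in addback cells: 9 from above and 17 from below met that definition. Far outside RP in both the untransduced line and the empty vector cells were 191 genes above and 486 below. Of these, 4.71% and 3.50% lay inside the RP range in addback cells, while 44.5% and 45.5% stayed far on the same side. Over all shared genes 27.8% lay inside the RP range in addback cells. All 3 groups are set against the same RP libraries. Ntsr2, a neurotensin receptor, was at 6.48 to 34.4 CPM in RP lines, 196 CPM in the untransduced line, 244 to 283 CPM with the empty vector and 18.1, 22.8 and 22.7 CPM in addback cells. RPM lines 1, 3 and 4 held 67.5, 127 and 176 CPM. Eya4, a transcriptional coactivator, was at 257 to 278 CPM with the empty vector and 4.90 to 6.28 CPM in addback cells, inside RP values that ran from 0.125 to 31.8 CPM. From below, Col7a1, the anchoring-fibril collagen, was at 25.4 CPM untransduced, 4.86 to 7.49 CPM with the empty vector, 92.6 to 106 CPM in addback cells and 63.3 to 180 CPM in RP lines. Lying inside a range that wide does not show that the levels were equal.

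A few genes were outside RP in addback cells alone, 4 higher and 1 lower. Chodl, a C-type lectin, was at 75.2, 71.3 and 63.3 CPM in addback cells and at most 5.09 CPM in any RP line (5.13 ± 0.61, limma adjusted p = 0.00148). The untransduced line held 4.71 CPM of Chodl and the empty vector cells 0.429 to 0.707 CPM. Ntrk3, the neurotrophin-3 receptor, was at 15.2, 13.5 and 8.90 CPM against at most 1.30 CPM (3.06 ± 0.35, limma adjusted p = 0.00128), and Otp, a hypothalamic homeobox factor, was 2.88 higher. Ptpro, a receptor phosphatase, was at 10.5, 8.74 and 6.71 CPM against 27.1 to 167 CPM in RP lines (-3.14 ± 0.53, limma adjusted p = 0.00639). RPM lines 1 and 3 held 0.643 and 2.15 CPM of Ptpro.

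Other genes were far from RP lines in both transduced groups and not in the untransduced line, 2 higher and 2 lower. Col4a5, a basement membrane collagen gene on the X chromosome, was at 3.37 to 8.35 CPM in RP lines, 3.97 CPM in the untransduced line, 39.3 to 54.4 CPM with the empty vector and 52.7 to 55.8 CPM in addback cells. Its difference from RP was 3.11 ± 0.26 (limma adjusted p = 0.000399), but the within-experiment sum was -0.17 (limma adjusted p = 0.837). Xlr, an X-linked lymphocyte gene of a repeated family and therefore uncertain, was at 17.7 to 19.9 CPM in addback cells, 16.5 to 23.8 CPM with the empty vector and 0 to 6.33 CPM in RP lines.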

How the data were processed

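RNA-seq libraries of 14 cell cultures were used, of which the 3 Max addback and 4 RP libraries are compared. The 32 tumour libraries were left out. The submitters' processing notes name bcl2fastq 1.8.4, TopHat2 2.1.0, HTSeq 0.6.1, edgeR and build mm10. The authors deposited CPM normalised within each of 2 tables (a signal divided by library factors), and no strand setting is given in the sources used here. All values were whole multiples of 1 read within 0.01 reads, so reads were recovered, restricted to the 13528 shared genes and scaled together by TMM over the 14 libraries. No filter was applied in the main test.

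The main test was limma 3.58.1 (R 4.3.3), two-sided, with a variance trend on log2(CPM + 1) and Benjamini-Hochberg adjustment over all shared genes. It was tested on simulated data with independent libraries and the same spread in both groups, unlike the addback libraries, which share a line. The simulation therefore does not measure the false calls of this comparison. Because the values were deposited as CPM and not as raw counts, the count tests (edgeR 4.0.16 quasi-likelihood and DESeq2 1.42.0) are alternatives on the recovered reads. Max, Rb1 and Trp53 were compared by an exact permutation test. The within-experiment sum used limma over 11 libraries, with the lone untransduced library assumed to vary like the others. It equals the addback difference from RP lines minus the empty vector difference from the untransduced line. Any difference between these last 2, from the experiment or not, is thus subtracted. They were 1626 to 1662 genes apart by at least 1 log2 unit. Alternatives were other pseudocounts (0.25 and 5), a minimum mean of 1 CPM, other scalings, array weights, a replicate block, the addback libraries averaged, and each library left out.

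Named genes are the network, the 12 largest kept-apart differences in each direction, the 8 largest back inside the RP range, those outside in addback cells alone or in both transduced groups, and examples from the lists; the others were chosen after their values were seen. Some genes that these rules name are not reported here. The genes compared and the lists were chosen with earlier results of these data known. Of the shared genes, 13522 were found in GENCODE vM21 by identifier. Recovered reads are not independent molecules.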

Additional observations from a re-analysis of the deposited data

Results flagged for a closer look

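Among the 4 RP lines, 1 library stood apart from the other 3 for 20 of 131 genes examined, by the share of the range that its gap to the nearest line takes; chance gives about 1 in 20. RP line 2 was the line apart for 9 genes and RP line 4 for 7. RP line 4 was highest for Stag3 (46.9 CPM), Tdrd1 (4.74 CPM), Calca (2393 CPM), Scg2 (1477 CPM), Pcsk2 (743 CPM), Aurka (131 CPM) and Ccnb1 (76.4 CPM). RP line 2 was highest for Anks1b (75.3 CPM), Eya4 (31.8 CPM), Cd74 (4.50 CPM), Rps2 (36.6 CPM), Xlr (6.33 CPM) and Tex101 (3.65 CPM), and lowest for Nolc1 (127 CPM), Rybp (39.1 CPM) and Syk (4.26 CPM). RP line 1 was highest for Cdh1 (1123 CPM), Epcam (879 CPM) and Jag2 (548 CPM), and RP line 3 for Bmp4 (7.35 CPM). The addback group of 3 libraries is too small for this check.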

How the results depend on the processing

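The number of genes called depended most on how the addback libraries count. Against 2490 calls (1125 higher, 1365 lower), averaging them to 1 sample gave 17 (3 and 14), and the within-experiment sum gave 1560 (845 and 715), of which 901 were calls of the main test with the same sign. With each library left out in turn the total ran from 920 to 2994, the higher calls from 333 to 1417 and the lower calls from 587 to 1577. For the within-experiment sum the total ran from 827 to 2617, higher calls from 451 to 1412 and lower calls from 376 to 1205; the most came without RP line 2 and the fewest without empty vector library 1. Same-numbered libraries share only a number (correlations of deviations -0.02, -0.01 and -0.04 over 3 pairs), and the replicate block gave 1424 calls (591 higher and 833 lower). By DESeq2 1448 genes were higher and 1957 lower, by edgeR 1018 and 1404.

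Changes of sign were counted only for genes that the main test or the within-experiment sum called. Of 131 genes named or chosen by rule, 3 changed sign in this way under that sum: Col4a5 (-0.17), Psat1 (-0.13) and Cldn3 (3.37). The sum also ended the calls of 30 of them, among them Cdh1 (limma adjusted p = 0.123), Stag3 (limma adjusted p = 0.0816) and Ret (limma adjusted p = 0.0526). Centring by chromosome, an alternative chosen after seeing the data, ended 9 calls and added 1, Calca; the ended calls include Mxd3 (limma adjusted p = 0.0604) and Rbm46 (limma adjusted p = 0.0570). DESeq2 ended 5 and edgeR 9. The cause was not tested. The deposited libraries hold few reads for genes near 0.355 CPM, where differences could not be resolved.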
